A study of Arabidopsis thaliana with 33 samples.

Results

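The comparison set 1 array of sorted xylem cells against 2 arrays of sorted phloem cells from the Arabidopsis thaliana root. The xylem array, titled S4, was compared with the mean log2 value of the phloem arrays S32 and SUC2, and a probe set was kept where S4 lay above both phloem arrays or below both. This held for 17968 of 22746 probe sets, of which 8480 (37.3% of all) were above both and 9488 (41.7%) below both. S4 fell between the phloem arrays on the remaining 4778. At 4-fold or more from the phloem mean, 279 probe sets were higher in S4 and 641 were lower. These 920 are called members at 4-fold below, and they were chosen by the difference itself, so the difference is a description with no test.

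Xylem and phloem are the conducting tissues of the root and arise side by side from the same procambial cells in the meristem. Xylem cells first divide and enlarge, later lay down a thick secondary wall of cellulose, xylan and lignin, and then die to leave an open vessel that carries water. Phloem consists of sieve elements, which lose their nucleus and carry sugars, and of companion cells, which keep theirs and load them.

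All 3 lines were grown on standard medium, and their roots were taken 5 to 6 days after germination. Cells marked by a green fluorescent protein reporter were freed as protoplasts by wall digestion and sorted by fluorescence. The S4 reporter marks protoxylem and metaxylem of the meristematic zone, S32 marks protophloem and metaphloem, and SUC2 marks companion cells. The labels name a zone for S4 and none for the phloem lines, so tissue and root zone cannot be told apart in this comparison. The other 5 sorted arrays were J2501 (pericycle, xylem and phloem together), S17 (phloem pole pericycle), JO121 (xylem pole pericycle), RM1000 (lateral root primordia) and COBL9 (hair cells). Each line has 1 array here, so no sorted value has a replicate check. A further 24 arrays came from 12 cross-sections of each of 2 single roots of 7 days and share no array with the sorted lines, so they carry the tests.

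Values are linear intensities with array medians between 0.822 and 0.914, and a level near 1 is therefore that of a typical probe set. The deposited table has no detection calls, and levels well under 1 have no measured floor. The log2 values spread more widely on S4 (SD 1.53) than on S32 (1.26) or SUC2 (1.35), the widest of the 8 sorted arrays. Over all probe sets the median difference of S4 from phloem was -0.08 on the log2 scale, and after quantile normalization of the 8 arrays it was 0.05. With 1 array per line, how much of a population is made of each cell type and how much RNA each cell held cannot be told apart.

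Of all probe sets, 1.23% were at least 4-fold higher and 2.82% at least 4-fold lower in S4, and at 2-fold 3109 (13.7%) were higher and 1924 (8.46%) lower. Quantile normalization moved this split from 279 higher and 641 lower to 113 and 600, so the higher members made up 30.3% of the calls as deposited and 15.8% after it. All 113 were among the 279, and 545 of the 600 were among the 641. Against each phloem array separately at 4-fold, 150 of the higher and 289 of the lower members remained. A further 77 higher members passed 4-fold against S32 and not SUC2, and 52 against SUC2 and not S32, while for the lower members these numbers were 147 and 205.

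The other sorted arrays showed where else the members were high. The median level of the 279 higher members was 8.04 on S4, 1.33 on S32 and 1.45 on SUC2. J2501, which includes xylem along with pericycle and phloem, had the next highest median at 2.10, and the other 4 arrays lay between 1.06 and 1.57. S4 was the highest of all 8 arrays for 271 of the 279 and at least 2-fold above every other array for 195. Over all probe sets S4 was the highest for 5334 of 22746 and the lowest for 4231, and the members were chosen for lying beyond 2 of the other 7 arrays. The median of the 641 lower members was 0.653 on S4, 5.42 on S32 and 5.93 on SUC2, with 3.52 on S17 and 2.11 on RM1000. J2501 had a median of 0.996 although its label includes phloem, and JO121 and COBL9 had at most 1.11. S4 was the lowest of the 8 arrays for 382 of the 641, and at least 2-fold below all others for 58. Both phloem arrays lay under their own array medians for 39 of the higher members (14.0%), and S4 lay under its own for 423 of the lower members (66.0%).

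**Figure D1:**
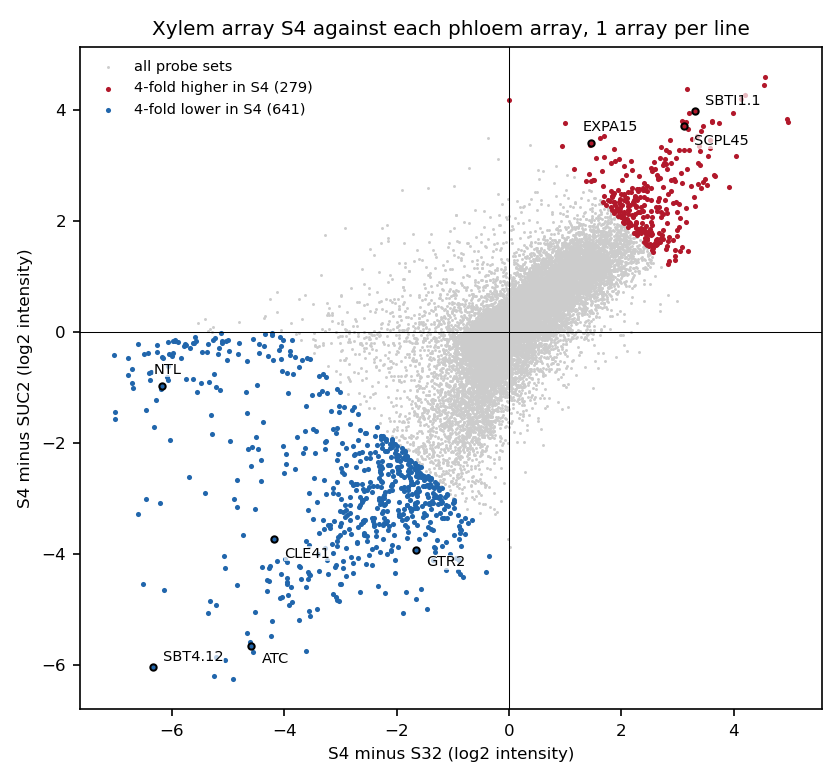
Difference of S4 from S32 (horizontal axis) and from SUC2 (vertical axis) in log2 intensity, 1 point per probe set, with the 279 higher members in red, the 641 lower members in blue and 8 named genes circled. Lower members spread along the left edge, where S32 is high and SUC2 lies close to S4 (NTL), as well as along the diagonal (SBT4.12, ATC), while the higher members cluster around the diagonal.

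Of 13363 genes with a probe set of their own, 129 (0.965%) were higher and 318 (2.38%) lower at 4-fold, and the annotation gives a name to 23 of the former and 55 of the latter. The genes described below are drawn from these named genes and from the lists, and most members carry a locus code alone.

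Several named genes with a high level on S4 encode proteases or relatives of them. SBTI1.1 (AT1G01900), a secreted subtilisin-like protease known to process a phytosulfokine precursor, had a level of 8.70 on S4, 0.883 on S32 and 0.551 on SUC2, a 12.5-fold difference. J2501 had 2.96, and the other arrays lay between 0.482 and 0.644, so the gene stood above the array medians in the populations that contain xylem. SCPL45 (AT1G28110), a serine carboxypeptidase-like protein, was 20.0 on S4 against 2.32 and 1.54, 10.6-fold higher, with 4.51 on J2501. Its relative scpl35 was 9.83 against 1.48 and 1.22. ARA12 (AT5G67360), a subtilase also known for its part in seed coat mucilage release, was 14.7 against 2.78 and 2.73 and stood at 5.68 on J2501. S4 was the highest of the 8 arrays for each of these 4 genes.

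Both protease families held genes on either side. Of 10 subtilases measured, 4 were above both phloem arrays and 4 below both, against 35.8% and 42.6% of all genes, and the list median was -0.10 as deposited and 0.10 after quantile normalization. SBT4.12 (AT5G59090), another subtilase, had the largest named difference in the other direction, with 0.585 on S4, 47.4 on S32 and 38.7 on SUC2, 73.2-fold lower. S17 matched the phloem arrays with 36.7, and the remaining arrays were at 4.57 or less. Of 29 serine carboxypeptidase-like genes, 7 were at least 2-fold higher and 1 at least 2-fold lower, against 12.3% and 7.42% of all genes, with a median of -0.12. After quantile normalization these counts were 5 and 0. Besides SCPL45 and scpl35, the 2-fold higher members included scpl48 at 13.8 on S4 against 4.57 and 3.25.

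Wall genes were found on both sides. EXPA15 (AT2G03090), an alpha-expansin of the proteins that loosen growing walls, was 18.7 on S4, 6.76 on S32 and 1.77 on SUC2, 5.4-fold above their mean. S32 was the next highest array for it, so the excess over sieve element cells was smaller than that over companion cells. EXLA1, an expansin-like gene, was 1.02 on S4, 29.0 on S32 and 1.35 on SUC2, and its lower call at 4-fold rests on S32. Of 19 expansins, 2 were at least 2-fold higher and 1 lower, against 12.3% and 7.42% of all genes, with a median of -0.26. SBTI1.1, SCPL45 and EXPA15, the genes taken as markers of meristematic xylem, were thus all higher in S4, but they were chosen with these data known and their direction is no independent evidence.

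Trichome birefringence-like (TBL) proteins, several of which acetylate wall polysaccharides, lay on both sides. Of 24 measured, 8 were at least 2-fold higher and 5 at least 2-fold lower, against 12.3% and 7.42% of all genes, and at 4-fold the counts were 4 and 2. After quantile normalization 5 were at least 2-fold higher and 4 at least 2-fold lower. TBL34, a xylan acetyltransferase, was 4.87 on S4 against 1.18 on S32 and 0.617 on SUC2, and no other sorted array exceeded 0.975. TBL36 was 13.7 on S4 against 3.06 and 1.62, but 10.9 on RM1000 and 9.91 on J2501, so it was not particular to S4 among the sorted arrays. TBL37 and TBL19 were also past 4-fold, with 8.11 and 2.4 on S4. On the lower side, TBL45 was 0.518 on S4, 21.0 on S32 and 0.975 on SUC2, and TBL28 was 0.530, 3.26 and 4.48.

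Secondary wall genes were sparsely measured, with 4 of 50 listed symbols. IRX15 and IRX15-L, needed for normal xylan in secondary walls, were 2.62 and 3.13 on S4, against 0.665 and 0.726 on S32 and 0.579 and 0.961 on SUC2. GUT2, a xylan glycosyltransferase of secondary walls, was 2.45 against 0.754 and 0.764. On J2501, also labelled with xylem, IRX15, IRX15-L and GUT2 were 0.769, 0.836 and 0.880, under that array's median of 0.884. IRX15-L was 2.20 on S17, so it was not particular to S4 among the sorted arrays. The 4th, a class III peroxidase with the locus code AT5G66390, lay the other way, with 0.615 on S4 against 3.00 and 1.92. The xylan genes were 3.22- to 4.22-fold higher, and IRX15 lay just inside the 4-fold limit, beside ILA at 4.23-fold. The regulators of xylem vessel identity in the list were not analysed here, apart from PHV and LHW. PHV, a class III homeodomain-leucine zipper factor that acts in vascular patterning, was 4.04 on S4 against 1.2 and 0.853 and fell just outside the 4-fold limit, as did SGP2 at 3.99-fold. LHW, a partner of the factors that drive vascular divisions, was 5.87 against 4.03 and 3.21.

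Other named genes with a high level on S4 had varied roles. SAH7, a member of the Ole e 1-like family of secreted proteins, was 23.2 on S4, 2.53 on S32 and 1.85 on SUC2, 10.7-fold higher, with 20.5 on J2501 and at most 1.72 on the arrays other than these 4. The 2 arrays labelled as containing xylem therefore stood well apart from the other 6. ACT11, an actin, was 14.0 against 2.82 and 2.00, and TET7, a tetraspanin membrane protein, 7.05 against 0.852 and 1.70. NDB3, an alternative mitochondrial NAD(P)H dehydrogenase, was 6.31 against 1.39 and 0.841. HMT-1, a homocysteine methyltransferase, was 20.9 on S4 and at most 5.91 elsewhere, and IAA29, an auxin response repressor, was 4.55 on S4 and at most 1.13 elsewhere.

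Cell division genes lay mostly above the phloem arrays. Of 11 cell division genes measured, 10 were above both phloem arrays and 8 at least 2-fold, against 35.8% and 12.3% of all genes, with a median difference of 1.2 on the log2 scale against -0.09 over all genes. After quantile normalization 9 were above both, 4 at least 2-fold, and the median was 0.83. BUB3.1, of the spindle checkpoint, was 5.85 on S4 against 1.79 and 1.59, and ASF1B, a histone chaperone, 6.07 against 1.90 and 2.06. The Aurora kinases AUR1, AUR2 and AUR3 were 5.39, 3.09 and 2.11 on S4, at least 2-fold over the phloem mean each. PRL, a replication licensing factor, was 5.46 against 2.33 and 1.48. The levels of the 11 genes summed to 44.7 on S4, 22.5 on S32, 18.4 on SUC2 and at most 26.5 on the other arrays. S4 is the array labelled as meristematic, and the part of zone in this difference was not tested.

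Of 7 tubulins, 5 were at least 2-fold higher, against 12.3% of all genes, with a median of 1.15 (0.81 and 3 genes after quantile normalization). TUA6 was 31.5 on S4 against 9.60 and 7.49, and TUB6 was 12.8 against 4.39 and 4.06. All 5 core histones lay above both phloem arrays, against 35.8% of all genes, with differences between 0.38 and 1.13 (4 of 5 after quantile normalization). All 12 core subunits of nuclear RNA polymerases, a list chosen after the values were seen, were likewise above both, with a median of 0.94 (11 of 12 and 0.68 after quantile normalization). NRPA2, the second largest subunit of RNA polymerase I, was 10.6 on S4 against 1.72 and 2.35, and it was the one member past 4-fold.

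**Figure D2:**
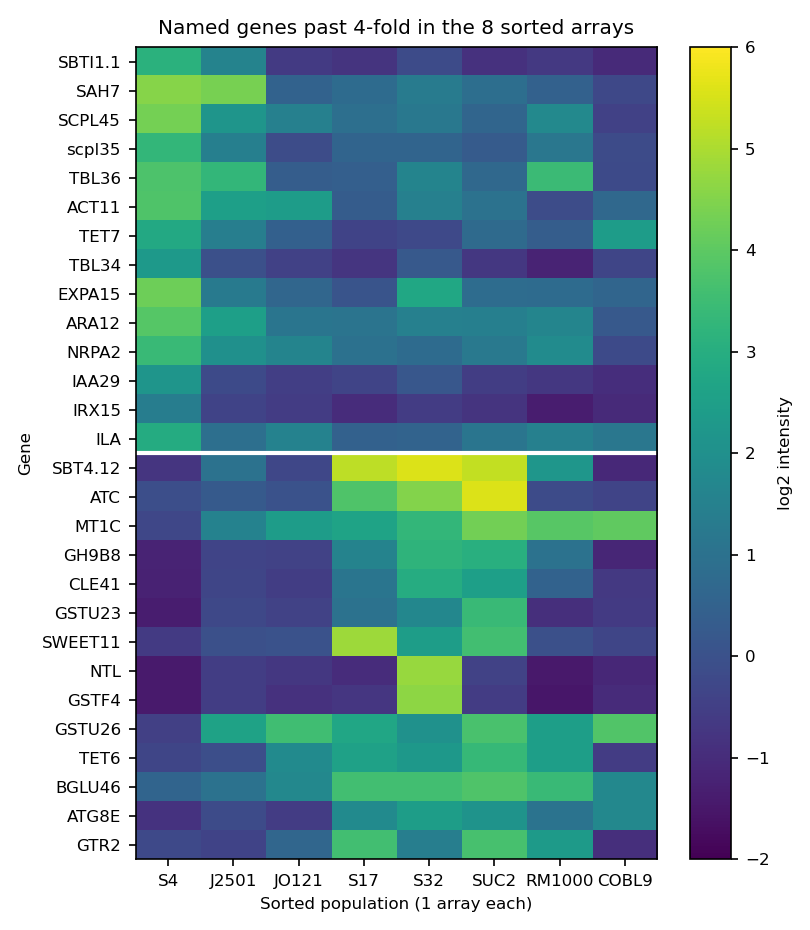
Log2 intensity (colour) of 28 named members past 4-fold (rows) in the 8 sorted arrays (columns, 1 array each), with the white line between genes higher and lower on S4. The upper genes are all brightest on S4, with J2501 next for SBTI1.1, SAH7 and SCPL45 and other arrays next for TBL36, TET7 and EXPA15, and lower genes such as SBT4.12 and ATC are bright on S17 as well as on S32 and SUC2, whereas NTL and GSTF4 are bright on S32 alone.

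Phloem genes were lower throughout. All 10 measured of 73 listed symbols were below both phloem arrays, 8 of them at 4-fold, against 42.6% and 2.38% of all genes, with a median of -2.88. Several entered the list with earlier results of these data known, so their direction is not independent evidence. Their levels summed to 7.47 on S4, 108 on S32 and 104 on SUC2, with 64.1 on S17 and at most 10.5 on the other 4 arrays. J2501, which is labelled as including phloem, was among these 4 with 9.19, near JO121 (8.83) and COBL9 (6.67). SUC2 itself, APL and the sieve element proteins of the list were not analysed here.

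The phloem genes divided by the array that carried them. ATC (AT2G27550), a mobile relative of the flowering signal FT, was 0.952 on S4, 22.8 on S32 and 48.3 on SUC2, 34.9-fold lower, and 13.9 on S17. SWEET11, a sucrose exporter of leaf phloem, was 0.648 against 5.47 and 12.0, but its highest level was 28.3 on S17. GTR2, a glucosinolate transporter, was 0.841 against 2.66 and 12.8, again with a high level on S17 (12.0). These 3 genes were higher on SUC2 than on S32. By contrast NTL, a nuclear transport factor 2-like gene, was 27.0 on S32 against 0.741 on SUC2 and 0.375 on S4. CML30, a calmodulin-like gene, was 26.5 on S32 against 1.19 and 0.702, and CLE26, a signalling peptide, 10.002 against 0.692 and 0.509. For such genes the difference of S4 from SUC2 was below 2-fold, and the 4-fold call came from S32.

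CLE41 (AT3G24770) encodes the peptide TDIF, which is made in phloem and restrains xylem differentiation in neighbouring procambium. It was 0.426 on S4, 7.76 on S32, 5.66 on SUC2 and 2.15 on S17, 15.6-fold lower in S4. The levels on the remaining 4 arrays lay between 0.621 and 1.44, so the phloem arrays were the highest of the 8. All 6 CLE genes measured, a list chosen after the values were seen, lay below both phloem arrays, against 42.6% of all genes. After quantile normalization 4 of them did so, and 3 had levels under 0.7 on all 3 arrays.

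Glutathione transferases, which conjugate toxic compounds, lay mostly below the phloem arrays. Of 13 measured, 11 were below both, 7 at 2-fold and 4 at 4-fold, against 42.6%, 7.42% and 2.38% of all genes, with a median of -1.15. GSTU23 was 0.387 on S4, 3.26 on S32 and 10.6 on SUC2, and GSTU26 was 0.708, 4.13 and 12.9. GSTF4 and GSTU18 resembled NTL, with 24.95 and 18.3 on S32 but 0.677 and 0.629 on SUC2. GSTU26 was also high outside the phloem, at 14.2 on COBL9 and 11.7 on JO121, and S4 was the one array below 4.

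Of 9 genes that wounding or wall digestion can induce, 8 were below both phloem arrays and 7 at 2-fold, against the same 42.6% and 7.42%, with a median of -1.17 (5 at 2-fold after quantile normalization). WRKY22, a stress transcription factor, was 0.572 on S4 against 2.43 and 8.22, and STZ, a zinc finger protein, was 4.37 against 9.58 and 21.7. Their levels summed to 10.4 on S4, 20.4 on S32, 47.9 on SUC2 and between 16.9 and 66.6 on the others, so S4 had the lowest sum of the 8 arrays. The part of cell preparation in the lower members was not tested.

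Of 9 ATG8 genes, whose ubiquitin-like proteins are attached to the membranes of autophagosomes, all were below both phloem arrays, 7 at 2-fold and 4 at 4-fold, against 42.6%, 7.42% and 2.38% of all genes, with a median of -1.37. This list was chosen after the values were seen. ATG8E was 0.569 on S4 against 5.45 and 4.32, and ATG8B was 0.435 against 4.88 and 1.47. APG8A and ATG8H were 2.08 and 1.5 on S4, 21.8 and 12.5 on S32, and 4.54 and 3.08 on SUC2, so for these the excess in S32 was the larger. Genes of the plastid genome, also chosen after their values were seen, differed in the same direction against S32 in all 69 cases (median -1.96) but had a median of -0.03 against SUC2.

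Other lower genes were MT1C, a metallothionein, with 0.809 on S4, 9.88 on S32 and 19.7 on SUC2, and GH9B8, an endoglucanase-like gene, with 0.436, 9.14 and 8.25. MT1C was also high on COBL9 (16.6) and RM1000 (15.1). TET6, a tetraspanin, was 0.803 against 4.82 and 10.2, opposite to TET7. BGLU46, a beta-glucosidase that acts on lignin precursor glucosides, was 1.49 against 12.0 and 14.0, and its levels on S17 and RM1000 were 12.1 and 10.7. Just inside the 4-fold limit were SRC2 and LEP, at 4.01- and 4.02-fold, and just outside were LBD16 and PSY1R, at 3.90- and 3.77-fold.

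Other enzyme families lay mostly below the phloem arrays, against 42.6% of all genes below both, and these counts moved with the scaling. Of 24 cytochrome P450 genes 21 were below both and 2 at 2-fold, but after quantile normalization 9 were below both. Of 51 UGT glycosyltransferases, which attach sugars to small molecules, 33 were below both and 9 above both as deposited, and 15 and 19 after quantile normalization. Of 22 beta-glucosidases 16 were below both and 4 at 2-fold, with 13 and 5 after quantile normalization. Of 10 xyloglucan endotransglucosylases, which cut and rejoin a wall polysaccharide, 9 were below both and 3 at 2-fold, with 6 and 3 after quantile normalization.

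Markers of other cell types were few in the measured set. Hair cell genes EXPA7 and EXPA18 had 0.684 and 0.471 on S4 against 16.9 and 7.05 on COBL9, whereas SCN1, also of that list, had 11.2 on S4 and 12.3 on COBL9. Their sum was 12.3 on S4, 4.02 on S32, 6.12 on SUC2 and 36.2 on COBL9. Of all genes 35.8% were above and 42.6% below both phloem arrays, which stands beside the counts that follow. Of 5 pericycle and lateral root genes, 2 were above and 3 below both phloem arrays, and the sum was 6.19 on S4, 6.12 on S32 and 6.80 on SUC2. Of the 2 genes measured from the ground tissue list UPB1 was above both and JKD below both, and their sum was 5.90, 5.72 and 4.30. UPB1 was highest on COBL9 (8.87), so this sum is no measure of ground tissue.

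**Figure D3:**
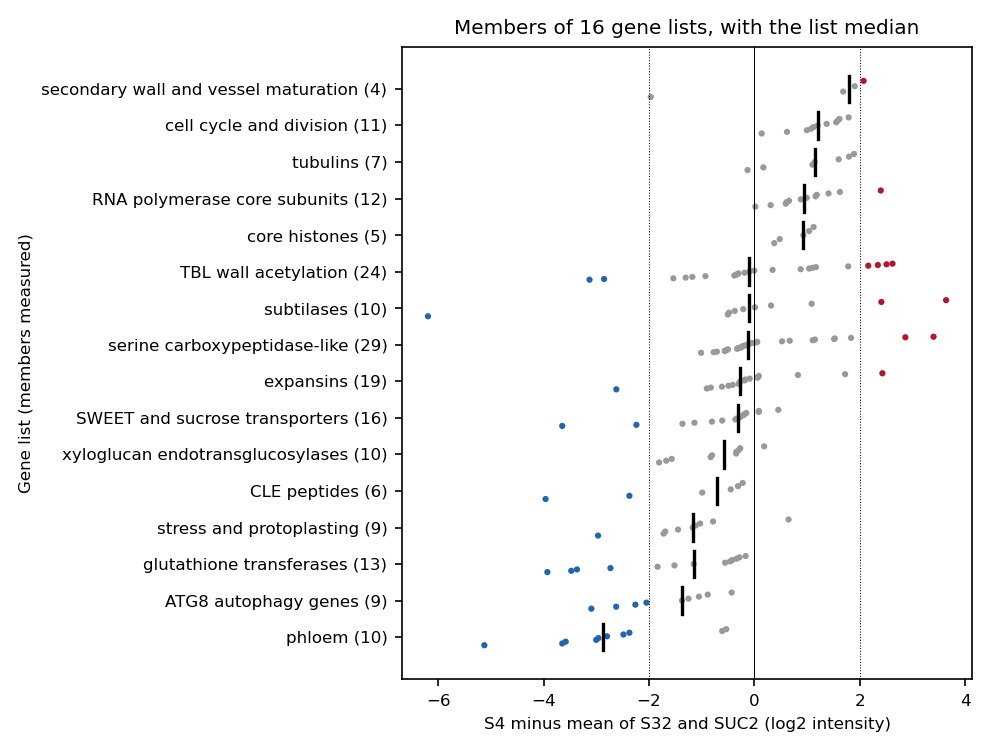
Difference of S4 from the mean of S32 and SUC2 in log2 intensity (horizontal axis) for each measured member of 16 gene lists (rows, with the number measured), with the list median as a black bar and dotted lines at 4-fold. Red and blue points lie past 4-fold on either side, and the medians run from -2.88 for phloem genes to 1.80 for the 4 secondary wall genes.

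The section arrays gave an independent measurement of the members along the root. A cross-section holds all tissues at its position, so a change between sections cannot be assigned to xylem or phloem. The question was whether genes that differ between meristematic xylem and phloem also differ between root zones, with 6 meristematic, 2 elongation and 4 maturation sections averaged per zone in each of 2 roots (n = 2 roots). Between maturation and meristematic zones, 6.66% of all probe sets rose and 7.07% fell by limma at an adjusted p under 0.05. Of the 279 higher members 30 rose and 74 fell, with a median change of -0.19 on the log2 scale against -0.04 over all probe sets. Of the 641 lower members 203 rose and 27 fell, with a median of 0.72. With root as a term, these p-values rest on how far the zone changes differed between these 2 roots, moderated over all probe sets. They do not reach to other roots.

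Members at 4-fold are brighter than most probe sets, and the comparison was repeated among probe sets with a mean log2 above 0. There 15.4% of all rose and 16.6% fell, while 35 of 205 higher members rose and 76 fell, and 245 of 474 lower members rose and 28 fell. Without root as a block the calls dropped to 15 and 18 of the higher and 71 and 16 of the lower members. Of all probe sets 1.94% rose and 1.27% fell in that fit. Of the higher members 41 fell when the second elongation array of root 1 was dropped and 47 when the first of root 2 was, and 19 rose without the latter array or the third maturation array of root 1. Rising calls over all probe sets went from 1514 to 1024 without the former of these last arrays and 984 without the latter. Elongation section 2 of root 1 had the narrowest log2 spread of the 24 arrays (SD 0.426). Its description names root 2, but its title shares the ending SB with the other root 1 arrays, and it was kept in root 1.

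Between elongation and meristematic zones 2.39% of all probe sets rose and 5.13% fell, and 21 of the higher members rose and 47 fell, while 109 of the lower members rose and 30 fell. The 109 became 20 when the first elongation array of root 1 was dropped, 51 for that of root 2 and 72 for the second meristematic array of root 1. Rising calls over all probe sets went from 543 to 63, 193 and 388 in these fits. The 21 became 2 and 11 when the first or the second elongation array of root 1 was dropped, 3 when the first of root 2 was, and 10 when the third maturation array of root 1 was. Over all probe sets 63, 501, 193 and 371 rose in these fits. The 47 became 28, 17, 18 and 31 in the same order, and 29 when the second meristematic array of root 2 was dropped. Among probe sets with a mean log2 above 0, 7.33% of all rose and 14.5% fell, with 22 of 205 higher members rising and 57 falling and 183 of 474 lower members rising and 32 falling.

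Between maturation and elongation zones 0.827% rose and 0.211% fell, with 27 lower members rising and 6 falling. The 27 ranged from 5 without maturation section 3 of root 1 to 53 without maturation section 1 of root 1, and the 6 from 0 without elongation section 1 to 11 without elongation section 2 of root 1. Of the higher members 2 fell and 0 rose by limma, and at an unadjusted p under 0.05 the numbers were 31 and 16, against 991 falling and 1848 rising of all 22746. Among probe sets with a mean log2 above 0, 3.07% of all rose and 0.77% fell, and 47 lower members rose and 10 fell. Variation over the 12 positions was called in 19.2% of all probe sets, in 123 higher members (44.1%) and in 320 lower members (49.9%). The 123 became 78 when the second meristematic array of root 2 was dropped. In no zone contrast were 165 of the higher members (59.1%) and 373 of the lower (58.2%) called, against 84.5% of all probe sets.

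**Figure D4:**
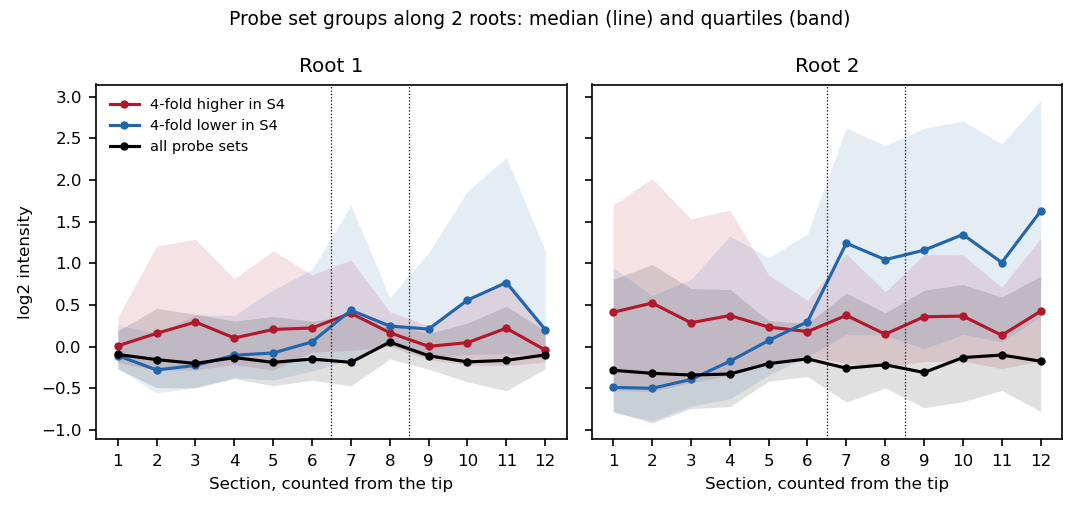
Median log2 intensity (line) and quartiles (band) of the 279 higher members, the 641 lower members and all probe sets along the 12 sections of root 1 and root 2, counted from the tip, with dotted lines between the meristematic, elongation and maturation zones. In both roots the lower members have their lowest medians in the first 3 sections and lie above all probe sets from section 4 on, while the higher members show no comparable slope.

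The positions of the highest level repeated this order. The mean of both roots was highest in a meristematic section for 168 of the 279 higher members (60.2%), against 46.1% of all probe sets, and section 2 held 82 of these maxima (29.4%, against 20.3% of all). Elongation section 1 held 38 of the higher members' maxima (13.6%, against 6.85% of all) and maturation section 2 held 34 (12.2%, against 7.04%). Of the 641 lower members 345 (53.8%) had their highest level in a maturation section and 213 (33.2%) in an elongation section, against 20.6% and 33.2% of all. Elongation section 1 held 151 of their maxima (23.6%, against 6.85% of all), and elongation section 2 held 62 (9.67%, against 26.4% of all). That 26.4% was the largest share of any section, and the root 1 array there had the narrowest log2 spread. The part of that array in the shares of all probe sets was not tested. In root 2 the median of the lower members went from -0.49 in section 1 to 1.63 in section 12, and in root 1 from -0.11 to 0.77 in section 11 and 0.21 in section 12. Root 1 and root 2 thus had the same direction with a different size.

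The 3 marker genes passed no zone contrast. SBTI1.1 had a level of 0.822 and 0.772 in the meristematic zone of root 1 and root 2, 1.16 and 1.03 in elongation and 0.836 and 0.821 in maturation. Its change from meristematic to maturation was 0.06 ± 0.11 (SE, limma adjusted p = 0.847, n = 2 roots), and its highest single values were 1.27 in section 8 of root 1 and 2.20 in section 6 of root 2. Variation over positions passed for SBTI1.1 (adjusted p = 0.0368, limma F test) and for EXPA15 (adjusted p = 0.0229), but not for SCPL45 (adjusted p = 0.541). EXPA15 was highest in section 2 of both roots, at 1.73 and 2.54, and at most 1.12 beyond the meristematic sections. SCPL45 differed more between the roots than along them, from 1.12 to 2.11 in root 1 and from 2.32 to 6.46 in root 2.

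**Figure D5:**
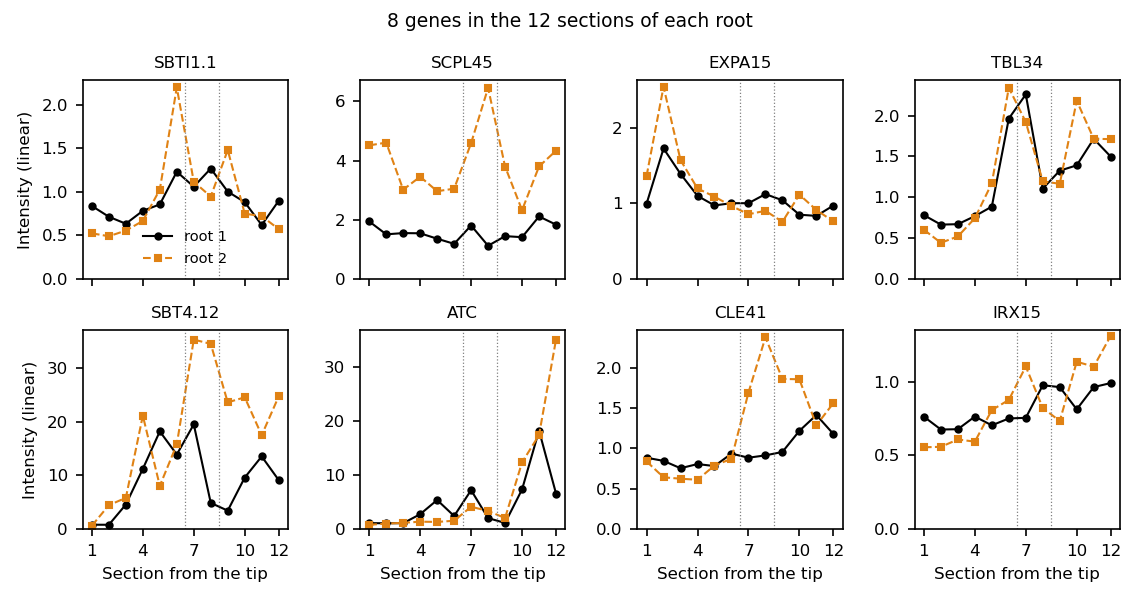
Linear intensity of 8 genes in the 12 sections (counted from the tip) of root 1 (black) and root 2 (orange), with each vertical axis starting at 0 and dotted lines between the zones. EXPA15 peaks in section 2 of both roots, TBL34 is higher from section 6 on, SBT4.12 and ATC are lowest nearest the tip, and SCPL45 is higher in every section of root 2 than in the same section of root 1.

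Among the higher members with a name, TBL34 rose away from the meristem, while 4 genes fell in a contrast with it. From meristematic to maturation zone 1 of the 23 rose and 3 fell, against 6.66% and 7.07% of all probe sets. TBL34 was 0.879 and 0.809 in the meristematic zone, 1.58 and 1.51 in elongation and 1.47 and 1.65 in maturation. The rise was 0.89 ± 0.13 to maturation (limma adjusted p = 0.0182) and 0.88 ± 0.13 to elongation (adjusted p = 0.029), and the former passed in 26 of 30 other settings but not without elongation section 2 of root 1 (adjusted p = 0.066) or after quantile normalization (0.0565). The latter passed in 24 of 30, with 0.151 when the first elongation array of root 1 was dropped and 0.103 after quantile normalization. CRT1b, a calreticulin of the endoplasmic reticulum, fell from 12.3 and 17.7 to 2.31 and 6.15, a change of -1.97 ± 0.23 (limma adjusted p = 0.0124), and passed in 29 of 30, the exception being the fit without root as a block (0.116). ILA, a relative of the translation regulator GCN1, changed by -0.70 and UPP, a uracil phosphoribosyltransferase, by -0.58 (limma adjusted p = 0.0387 and 0.0349), each in 18 of 30 settings, with 0.119 for ILA without elongation section 2 and 0.0933 for UPP without elongation section 1 of root 1. NRPA2 fell by 0.87 from meristematic to elongation zone (limma adjusted p = 0.0366, 21 of 30 settings, and 0.121 without meristematic section 2 of root 2).

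Between meristematic and maturation zones, 18 of the 55 lower members with a name rose and 3 fell. The shares of all probe sets were 6.66% and 7.07%, or 15.4% and 16.6% among those with a mean log2 above 0. MT1C was 1.28 and 0.986 in the meristematic zone and 33.6 and 31.5 in maturation, a rise of 4.86 ± 0.20 (limma adjusted p = 0.00347) that held in all 30 other settings. BGLU46 went from 0.690 and 0.969 to 8.19 and 15.3, a rise of 3.78 ± 0.22 (limma adjusted p = 0.00395) that also held in all 30. ATC rose by 2.41 ± 0.39 (limma adjusted p = 0.0231), from 1.89 and 1.17 to 5.62 and 11.1, but without maturation section 3 of root 1 its adjusted p was 0.0674. EXLA1 rose by 2.73 and AR781 by 2.84 (limma adjusted p = 0.0101 and 0.0124). SBT4.12 rose from 4.51 and 5.93 in the meristematic zone to 9.73 and 34.8 in elongation (1.83 ± 0.35, limma adjusted p = 0.0471), a call that 17 of 30 other settings kept, and not without elongation section 1 of root 1 (0.237). Its change to maturation was 1.37 with an adjusted p of 0.0666.

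The 3 that fell were PDF2.5, sks15 and MSRB9. PDF2.5, a defensin, was 7.87 and 5.33 in the meristematic zone and 0.866 and 0.605 in maturation, a change of -3.16 ± 0.12 (limma adjusted p = 0.00347) that held in all 30 other settings. The sks15 gene, of a multicopper oxidase-like family, fell by 1.71 (limma adjusted p = 0.0117), and MSRB9, a methionine sulfoxide reductase, by 1.39 (adjusted p = 0.0216), neither of which passed after quantile normalization (adjusted p = 0.0787 and 0.054). Without elongation section 1 of root 1 the adjusted p of MSRB9 was 0.242. Several of the phloem genes with the widest differences passed no zone contrast, with limma values from meristematic to maturation of 0.84 ± 0.32 for CLE41 (adjusted p = 0.17), 0.06 ± 0.12 for SWEET11 (adjusted p = 0.841) and 0.26 ± 0.28 for NTL (adjusted p = 0.691).

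By list, 4 of 5 core histones fell from meristematic to maturation zone and the same number to elongation. Beside these and the lists below, 7.07% of all probe sets fell to maturation and 5.13% to elongation. Among probe sets with a mean log2 above 0 these shares were 16.6% and 14.5%. HTB2 went from 2.72 and 2.76 to 0.813 and 0.659 (-1.90 ± 0.14, limma adjusted p = 0.00591). After quantile normalization HTB11 and HTB1 passed neither contrast (limma adjusted p = 0.148 and 0.0511 to maturation, 0.12 and 0.282 to elongation). Without root as a block HTB4 and HTB11 passed neither (limma adjusted p = 0.181 and 0.191 to maturation, 0.206 and 0.23 to elongation). Of 11 cell division genes 2 fell to maturation, BUB3.1 by 0.79 and ASF1B by 0.89 (limma adjusted p = 0.0331 and 0.04, and 0.0925 and 0.0809 without meristematic section 2 of root 1), and 3 fell to elongation, with list medians of -0.34 and -0.76. Of 7 tubulins 3 fell to maturation, led by TUB5 at -1.71 ± 0.18 (limma adjusted p = 0.0104, or 0.0529 with the second elongation array of root 1 dropped). LHW fell by 0.96 ± 0.13 (limma adjusted p = 0.0164), from 1.85 and 2.06 to 1.06 and 0.953, whereas PHV changed by -0.05 ± 0.13 (adjusted p = 0.883).

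Of the 4 secondary wall genes 2 rose towards maturation. Beside this and the lists below, 6.66% of all probe sets rose, or 15.4% of those with a mean log2 above 0. IRX15-L went from 0.710 and 0.615 to 1.29 and 2.59 (1.47 ± 0.29, limma adjusted p = 0.036, or 0.0614 with the first elongation array of root 2 dropped), and the peroxidase AT5G66390 from 0.611 and 0.529 to 8.54 and 19.4 (4.50 ± 0.61, limma adjusted p = 0.0162). The former was higher and the latter lower on S4. Of 10 phloem genes 2 rose, ATC and UBC29, a ubiquitin-conjugating enzyme (1.41 ± 0.21, limma adjusted p = 0.0195). Of 9 ATG8 genes 6 rose, led by ATG8E from 0.689 and 1.5 to 3.73 and 6.58 (2.28 ± 0.13, limma adjusted p = 0.00395, and 0.0608 without root as a block). Of the 9 stress genes 4 rose, among them STZ from 1.14 and 1.86 to 10.2 and 16.4 (3.15 ± 0.19, limma adjusted p = 0.00405).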

How the data were processed

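Expression was measured on Affymetrix ATH1 arrays after RNA amplification in 2 cycles, per the labels' protocols. The deposited values are linear intensities, 1 per probe set and array. How background was corrected and how arrays were summarised and scaled is not given in the sources used here. Per the series' design, there were 2 to 3 replicates per sorted line. Whether each deposited array is 1 of these or their mean is not stated. The log2 of the deposited intensity was taken with no offset. Of 22746 probe sets, 13513 were paired with 1 gene by the platform annotation, 503 with several and 8730 were not listed, and 13436 of the 13513 matched TAIR10.1. A gene with several probe sets was represented by the brightest over all arrays. Fold is the ratio of S4 to the geometric mean of S32 and SUC2. 

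The 24 section arrays were averaged per zone and root into 6 values and fitted with limma 3.58.1 in R 4.3.3, with zone and root as terms (2 residual and 3.06 prior degrees of freedom). P-values were adjusted over 22746 probe sets by Benjamini-Hochberg, with a threshold of 0.05. A moderated F test over 12 positions used all 24 arrays with root as a term. Of these fits, the zone fit was tried on simulated data, for the change from meristematic to maturation zone alone. The labels number the roots, so arrays of 1 root share a plant, and the differences between the roots correlated across genes with a median r of 0.48 over 66 pairs of positions (-0.23 to 0.83). The 24 section arrays number 2 per position, which limits the precision.

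Named genes were those with a symbol that had the largest differences, the largest excess over or deficit against the other sorted arrays, the largest differences within a list, a place next to the 4-fold limit, or the largest passing zone changes. AUR1, AUR3, TBL19, TBL37, UBC29 and sks15 fall outside this rule and were chosen after their values were seen. Members and lists were chosen with earlier results of these data known. Alternatives were quantile normalization, an offset, a filter on dim probe sets, 1 phloem array at a time, the fit without root, the fit to all arrays, a trended prior and leaving out each section array. A columella section array was left out because it has no counterpart in the second root.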

Additional observations from a re-analysis of the deposited data

How the results depend on the processing

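With 1 array per sorted line and 2 roots, neither the sorted differences nor the counts of calls have a wide base, levels under 1 have no measured floor, and the cause of each move below was not tested. The 279 higher and 641 lower members became 150 and 289 with 4-fold required against each phloem array, and 78 and 235 with an offset of 1. The higher count was 492 against S32 alone and 113 after quantile normalization, and the lower count stayed within 1.5 times under these settings. Under the other scalings, offsets and phloem arrays, 877 differences of named genes stayed on their side of the 4-fold limit or moved by less than 0.5 on the log2 scale, and 58 did not.

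Arrays with the same replicate number come from 1 root, and with no replicate block the calls from meristematic to maturation zone were 15 up and 18 down among higher members and 71 up and 16 down among lower members. Of all probe sets 1.94% rose and 1.27% fell. From meristematic to elongation zone the calls were 3 and 6, and 22 and 15, against 0.356% rising and 0.492% falling of all probe sets. From elongation to maturation 1 higher member fell while 12 lower members rose and 3 fell, against 0.303% rising and 0.044% falling of all. The positions count of lower members was 202 (31.5%), against 10.7% of all probe sets.

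With quantile normalization, 8 higher members rose and 20 fell from meristematic to elongation zone, against 2.02% and 2.46% of all probe sets. From elongation to maturation 0 higher members fell by limma, while 10 lower members rose and 1 fell, against 0.286% rising and 0.0176% falling of all. As deposited, 31 higher members fell there at an unadjusted limma p under 0.05, against 991 of all 22746 probe sets. The fit to all 24 arrays gave 51 higher and 374 lower members rising from meristematic to maturation, 17 higher falling, 250 lower rising and 15 lower falling to elongation, and 5 higher falling, 41 lower rising and 12 lower falling from elongation to maturation. Over all probe sets 14.2% rose to maturation, 5.03% rose and 3.64% fell to elongation, and 1.92% rose and 0.391% fell from elongation to maturation. A trended prior gave 33 higher and 218 lower members rising to elongation, and 7 higher falling, 52 lower rising and 21 lower falling from elongation to maturation. The shares of all probe sets were 4.5% rising to elongation, and 2.09% rising and 0.783% falling from elongation to maturation. The filter on dim probe sets gave 183 lower rising to elongation, and 5 higher falling, 47 lower rising and 10 lower falling from elongation to maturation.

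With each section array left out in turn, higher members rising from meristematic to maturation numbered 19 to 38 and falling 41 to 80, and lower members 137 to 243 and 22 to 29. To elongation these were 2 to 25, 17 to 56, 20 to 130 and 20 to 34. From elongation to maturation they were 0 to 2, 0 to 8, 5 to 53 and 0 to 11. Rising calls over all probe sets moved in these fits too, as given above. Variation over positions was called in 78 to 143 higher and 243 to 380 lower members. The change of CSLD2 from meristematic to elongation ranged from -0.048, reversed without elongation section 1 of root 1, to 1.34, and that of GSTU26 from -0.039, reversed without elongation section 1 of root 2, to 1.35.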
